A study of Mus musculus with 6 samples.

Results

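The let-7 family was examined in mouse embryonic stem cells (ESCs) grown in 3 media. Its members were chosen by name, not by a rule on their values, although earlier results of these data were known. They were the 8 listed let-7 5p arms, mmu-miR-98-5p and mmu-let-7d-3p, which made 10 of the 1907 mature miRNAs in the count table. All 10 had enough counts to be tested, as did 571 miRNAs in total.

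The ESC lines RB18 and RB20 were derived from C57BL/6 mice in R2i with leukemia inhibitory factor (LIF), and each line gave 1 small RNA library per medium, 6 in total. Serum cells received 15% fetal bovine serum. 2i cells received 1 µM PD0325901, a MEK inhibitor, and 3 µM CHIR99021, a GSK3 inhibitor. R2i cells received 1 µM PD0325901 and 10 µM SB431542, an inhibitor of TGF-β type I receptors. Both inhibitor media were serum-free N2B27, all media held 1000 U/ml LIF, and the serum and 2i lines had been passaged at least 10 times. The basal medium therefore differed together with the inhibitors, and what either contributed cannot be told apart in any comparison against serum. RNA of 3 cultures was pooled for each library, so a replicate here is a line, and fewer expressing cells and less miRNA per cell cannot be told apart.

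Library totals ranged from 1041858 counts (R2i RB18) to 3593356 (R2i RB20), and 3 counts corresponded to 2.88 and 0.835 counts per 1000000 (CPM) in these libraries. The ESC label was checked against 10 ESC miRNAs of the miR-290 and miR-302 groups, and all 10 exceeded 3 counts in every library, with a summed level of 269890 to 354230 normalized CPM. The R2i RB18 library had the lowest depth, and for miR-100-5p and miR-99a-5p it did not follow the other RB18 libraries, as described with let-7b-5p. No cause of this was tested, and its line label was used as given. The main tests used no line term.

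let-7 miRNAs are made from hairpin precursors by Drosha and Dicer, and the mature strand guides Argonaute to messenger RNAs that pair with its seed. In pluripotent cells the RNA-binding protein LIN28 binds let-7 precursors and holds back their maturation. let-7 accumulates as cells differentiate and counteracts the self-renewal program promoted by the ESC miRNAs of the miR-290 group.

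The mature sequences show why the 9 5p arms form 1 family and why close members are hard to separate in short reads. They are RefSeq sequences written 5′ to 3′, with the seed (bases 2 to 8) in capitals.
mmu-let-7a-5p: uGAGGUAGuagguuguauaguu
mmu-let-7b-5p: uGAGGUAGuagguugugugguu
mmu-let-7c-5p: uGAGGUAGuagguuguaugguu
mmu-let-7d-5p: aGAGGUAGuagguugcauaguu
mmu-let-7e-5p: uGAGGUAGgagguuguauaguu
mmu-let-7f-5p: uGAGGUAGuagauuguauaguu
mmu-let-7g-5p: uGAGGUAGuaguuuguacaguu
mmu-let-7i-5p: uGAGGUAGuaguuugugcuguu
mmu-miR-98-5p: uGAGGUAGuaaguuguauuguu
mmu-let-7d-3p: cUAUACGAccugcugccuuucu

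All 9 5p arms carried the seed GAGGUAG, whereas mmu-let-7d-3p, the other arm of the let-7d hairpin, carried UAUACGA. Of the 36 pairs of 5p arms, 4 differed at 1 base, and the most distant pairs differed at 6. let-7a and let-7e differed at position 9 counted from the 5′ end, let-7a and let-7f at position 12, and let-7a and let-7c at position 19. How reads with mismatches or several matches were assigned is not given in the sources used here, so the values of these 4 close arms, and of let-7b, which differed from let-7c at 1 base, are uncertain to that extent. Among the 1623 miRNAs of the table with a RefSeq sequence, 11 carried this seed. The additional 2 were let-7k and miR-1961, and both were at 0 counts in every library. Another listed let-7 name, let-7j, had 1 count over all 6 libraries.

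All 10 mature members are 22 bases long, and no correction was made between members. How evenly different sequences were captured was not tested, so orders of abundance between miRNAs describe counts. let-7a-5p and let-7f-5p led the family, and let-7b-5p was the least abundant. By mean normalized CPM over the libraries, let-7a-5p ranked 126 and let-7f-5p 127 among all miRNAs, while let-7d-3p ranked 357 and let-7b-5p 439. Normalized CPM (CPM with the library size scaled by the TMM method) is used for all levels below.

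In serum, let-7a-5p stood at 318.6 ± 22.5 normalized CPM and let-7f-5p at 256.4 ± 7.35 (SD, n = 2 for these and all following levels). let-7e-5p (154.5 ± 30.0) and let-7c-5p (151.6 ± 0.0139) followed and overlapped. let-7g-5p (119.3 ± 4.70) and let-7i-5p (107.7 ± 22.2) also overlapped. The lower levels were those of let-7d-5p (33.0 ± 5.99), miR-98-5p (27.0 ± 2.52), let-7d-3p (17.8 ± 2.79) and let-7b-5p (8.06 ± 7.53). Of these, let-7d-5p and miR-98-5p met at 28.7 in RB20.

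The order changed in 2i. let-7f-5p had 503.9 ± 64.8 and let-7a-5p 426.5 ± 98.2, and their ranges overlapped. let-7g-5p moved to the third place with 363.3 ± 5.45, between the libraries of let-7a-5p, and let-7e-5p moved from the third to the sixth with 84.4 ± 5.35. let-7c-5p (171.0 ± 33.1) and let-7i-5p (158.2 ± 10.5) overlapped. In R2i, let-7a-5p (409.7 ± 24.0) was above let-7f-5p (366.3 ± 27.6), then came let-7g-5p (235.1 ± 7.01), let-7c-5p (139.4 ± 23.7) and let-7i-5p (119.4 ± 5.09), the last pair with overlapping ranges. miR-98-5p (50.3 ± 4.46) and let-7e-5p (50.0 ± 7.70) were level in R2i.

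**Figure D1:**
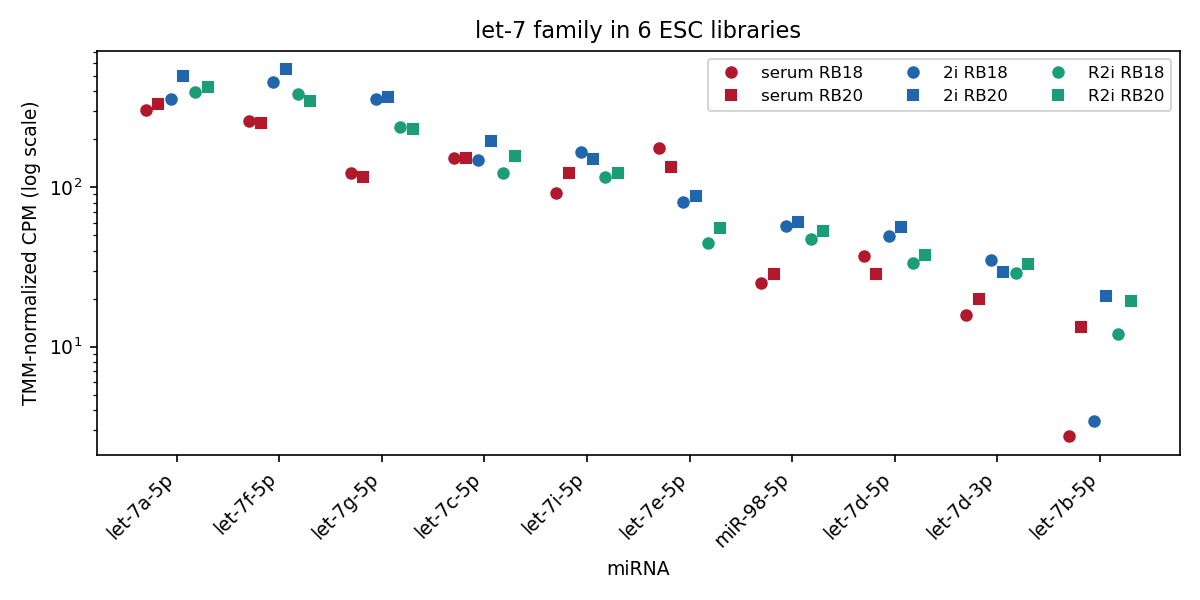
Level of each let-7 family member (x axis) in TMM-normalized CPM on a log scale (y axis), 1 point per library, colored by medium, with circles for RB18 and squares for RB20. The serum points of let-7g-5p (116 and 123) sit under all of its 2i and R2i points (230 to 367), the serum points of let-7e-5p sit above all others of that miRNA, and let-7b-5p is spread between lines.

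The first question was whether ground-state ESCs, as 2i and R2i cells are called, differ from serum ESCs in let-7 levels. In 2i, let-7g-5p and miR-98-5p rose over 2-fold, let-7f-5p, let-7d-3p and let-7d-5p rose by less, and let-7e-5p fell. In R2i, let-7g-5p, miR-98-5p and let-7d-3p rose and let-7e-5p fell over 2-fold. let-7a-5p, let-7c-5p, let-7i-5p and let-7b-5p passed no test in either medium.

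Counted with both a significance and a fold limit (adjusted p under 0.01 and more than 2-fold, edgeR), 2 of 10 members were called in 2i, both higher, against 34.2% of the 571 tested miRNAs. At adjusted p under 0.05 with no fold limit, 6 members passed (5 higher, 1 lower), against 51.1% of all. In R2i, 1 member was called, lower, against 30.6% of all, and 4 passed at 0.05 (3 higher, 1 lower), against 41.7%. For the mean of 2i and R2i against serum, 3 were called (2 higher, 1 lower), against 37.0%, and 5 passed at 0.05 (4 higher, 1 lower), against 51.3%. The family was therefore called no more often than miRNAs at large by the stricter rule, and close to the background by the wider one. These comparisons share the serum libraries and are not separate evidence.

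The members leaned upward while the table as a whole did not. Their median log2 fold change was 0.66 in 2i and 0.44 in R2i, and the median over all tested miRNAs was −0.03 and −0.07. In 2i, 9 of 10 members had a log2 fold change above 0, and in R2i 8 of 10, with let-7e-5p and let-7c-5p below 0.

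let-7g-5p is encoded by 1 hairpin, Mirlet7g, in an intron of Wdr82 on the same strand (GRCm38, chr9:106178840-106178927). It had 224 and 234 counts in serum (RB18 and RB20 in that order, as in all such pairs), 740 and 1203 in 2i, then 280 and 805 in R2i. As normalized CPM these were 122.6 and 116, 359.4 and 367.2, and 240.1 and 230.2. Both lines gave nearly the same level in each medium, and the 3 media did not overlap. The log2 fold change was 1.61 in 2i (standard error, SE, 0.23, edgeR adjusted p = 0.000643) and 0.98 in R2i (SE 0.22, edgeR adjusted p = 0.00875). The R2i value lies just under the 2-fold limit and passed it with several other scalings. The 2i value kept its call in 15 of 15 alternative settings, between 1.51 and 1.75.

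miR-98-5p, which shares the let-7 seed under another name, is encoded by Mir98 in an intron of Huwe1 on the X chromosome (151913214 to 151913321). Its counts were 46 and 58 in serum, 118 and 199 in 2i, then 55 and 187 in R2i. Serum levels (25.2 and 28.7 normalized CPM) lay below all 4 ground-state levels (47.2 to 60.7), and 2i and R2i lay close together. The log2 fold change was 1.13 in 2i (SE 0.23, edgeR adjusted p = 0.00457) and 0.91 in R2i (SE 0.23, edgeR adjusted p = 0.0150). The 2i value passed 0.05 in 15 of 15 alternatives, but without any 1 of the 4 serum and 2i libraries its adjusted p rose above 0.01 (0.0137 to 0.0413, edgeR). Without R2i RB20, the R2i value was 0.81 with an adjusted p of 0.0925 (edgeR).

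let-7f-5p comes from 2 hairpins with the same mature sequence, Mirlet7f-1 on chromosome 13 and Mirlet7f-2 at a gap of 785 bases from Mir98, so its counts cannot be divided between them. It had 478 and 507 counts in serum, 943 and 1801 in 2i, then 450 and 1213 in R2i. The normalized levels were 261.6 and 251.2, 458.1 and 549.7, and 385.8 and 346.8, without overlap between media. It rose in 2i with a log2 fold change of 0.97 (SE 0.23, edgeR adjusted p = 0.00996), and the adjusted p was 0.0865 without 2i RB20. In R2i the log2 fold change of 0.51 (95% interval −0.03 to 1.05, edgeR adjusted p = 0.113) did not pass.

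let-7e-5p went the other way. Its counts were 321 and 269 in serum, 166 and 289 in 2i, then 52 and 194 in R2i. The normalized levels were 175.7 and 133.3 in serum, 80.6 and 88.2 in 2i, then 44.6 and 55.5 in R2i. Serum was highest and R2i lowest in both lines, with no overlap. The log2 fold change was −0.87 in 2i (SE 0.25, edgeR adjusted p = 0.0225) and −1.61 in R2i (SE 0.26, edgeR adjusted p = 0.00154). The R2i value passed 0.05 in 15 of 15 alternative settings (−1.85 to −1.30). The 2i value did not pass when 2i RB18, 2i RB20 or serum RB18 was left out, with log2 fold changes of −0.78, −0.91 and −0.55.

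The let-7d hairpin lies in an exon of the noncoding RNA 6720427I07Rik (GRCm38, chr13:48536012-48536114) and gave both of its arms. let-7d-5p had 68 and 58 counts in serum, 102 and 184 in 2i, then 39 and 132 in R2i. let-7d-3p had 29 and 40, 72 and 97, and 34 and 115. Each arm was higher in both 2i libraries than in both serum libraries, and in R2i this held for let-7d-3p, whose levels were 29.2 and 32.9 normalized CPM against 15.9 and 19.8 in serum. The log2 fold change of let-7d-3p was 0.85 in 2i (edgeR adjusted p = 0.0317) and 0.80 in R2i (edgeR adjusted p = 0.0472). That of let-7d-5p was 0.68 in 2i (edgeR adjusted p = 0.0493) and 0.12 in R2i (edgeR adjusted p = 0.746). With the cell line as a block, let-7d-5p in 2i (edgeR adjusted p = 0.0726) and let-7d-3p in R2i (edgeR adjusted p = 0.0666) no longer passed 0.05. Over all 15 alternatives, let-7d-5p in 2i missed it in 12, let-7d-3p in R2i in 11 and let-7d-3p in 2i in 5.

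The remaining 4 members did not pass. let-7a-5p, the most abundant, had 553 and 675 counts in serum, 735 and 1625 in 2i, then 458 and 1492 in R2i. Its log2 fold change was 0.42 in 2i (95% interval −0.17 to 1.01) and 0.36 in R2i (−0.23 to 0.95), and the upper end of the 2i interval reaches 2-fold. let-7i-5p, from a hairpin on chromosome 10, had 168 and 249, 341 and 494, and 135 and 430 counts, with log2 fold changes of 0.55 (−0.02 to 1.13) and 0.15 (−0.43 to 0.73). For let-7c-5p (277 and 306, 304 and 637, 143 and 546 counts) the values were 0.18 (−0.42 to 0.77) and −0.12 (−0.71 to 0.48).

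**Figure D2:**
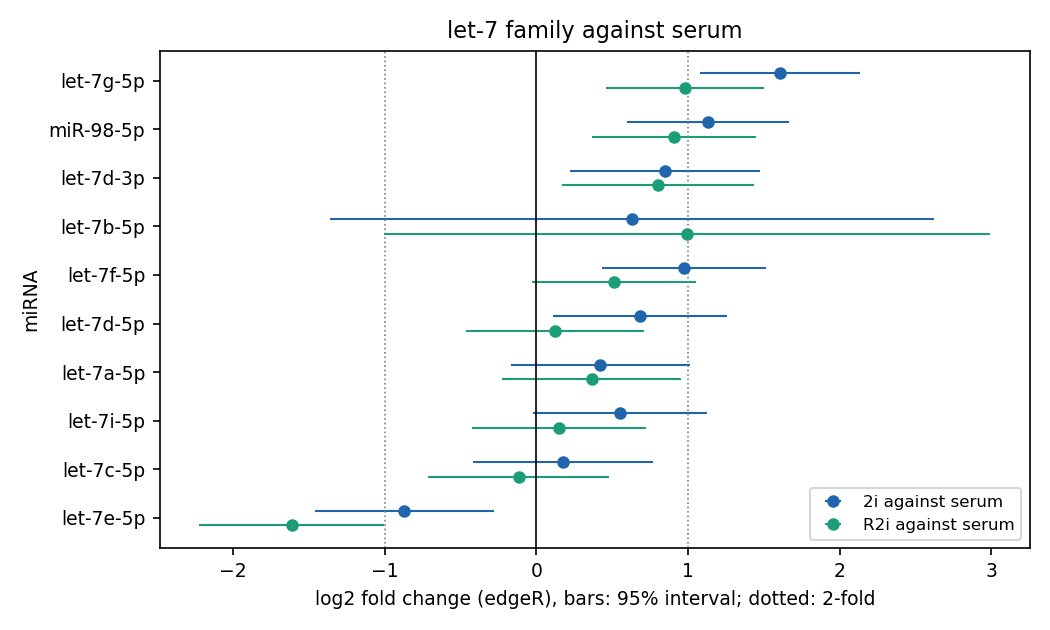
Log2 fold change against serum (x axis) of each let-7 family member (y axis) in 2i and in R2i, from edgeR on all 6 libraries, with bars for the 95% interval and dotted lines at 2-fold. let-7g-5p (1.61 and 0.98) and miR-98-5p (1.13 and 0.91) lie to the right of 0 with intervals clear of it, let-7e-5p (−0.87 and −1.61) to the left, and let-7b-5p has the widest intervals.

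2i and R2i were then set against each other. No member was called, against 0.350% of all tested miRNAs, and none passed 0.05, against 0.525% (2 and 3 miRNAs, edgeR). The same held with DESeq2. The lowest adjusted p among the members was 0.197 (edgeR), for let-7e-5p and let-7g-5p, both higher in 2i. Their log2 differences were 0.74 (95% interval 0.14 to 1.35) and 0.63 (0.12 to 1.14). The median over the members was 0.35 and over all miRNAs 0.01. For miR-98-5p the difference was 0.22 (−0.29 to 0.74), and for let-7d-3p 0.04 (−0.56 to 0.64). A difference between the inhibitor media is thus not shown for any member, and the intervals of let-7e-5p and let-7g-5p still hold values over 2-fold.

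The counts of the 9 5p arms were summed to describe the family as a whole. The family made 0.123% (95% Wilson interval 0.118 to 0.128) and 0.106% (0.102 to 0.111) of all counts in serum. In 2i the shares were 0.168% (0.162 to 0.174) and 0.193% (0.188 to 0.198), and in R2i 0.156% (0.149 to 0.164) and 0.141% (0.137 to 0.145). These intervals cover counting error only. Both ground-state media lay above serum in both lines, and the mean share was 1.58 times that of serum in 2i and 1.30 times in R2i. Per TMM-normalized library the ratios were 1.56 and 1.21.

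The family stayed small beside 8 ESC miRNAs of the miR-290 and miR-302 groups, listed for the seed AAGUGC. The list is not complete for these groups, as the abundant miR-292a-3p and miR-293-3p were not in it. miR-292a-3p had 37034 and 35118 normalized CPM in serum, 23672 and 25000 in 2i, then 25230 and 31528 in R2i. The levels of miR-293-3p overlapped between media. The listed miRNAs alone were counted 235 and 182 times per family count in serum, 181 and 145 times in 2i, and 200 and 207 times in R2i. The R2i values lay inside the serum range, and the 2i RB18 value lay just under the lower serum value. Of the 8 listed, 4 passed 0.05 in 2i, all higher (miR-291b-3p, miR-302a-3p, miR-302b-3p and miR-302c-3p), and 4 in R2i, all higher (miR-302a-3p to miR-302d-3p), against 51.1% and 41.7% of all tested miRNAs in either direction. Their median log2 fold change was 0.76 in 2i and 1.24 in R2i. The most abundant, miR-295-3p, had log2 fold changes of 0.34 (edgeR adjusted p = 0.256) and 0.26 (edgeR adjusted p = 0.403). A RefSeq sequence was found for 7 of the 8, and 6 of these had AAGUGC at bases 2 to 7, while the listed miR-302c-3p read AGUGCUU at bases 2 to 8.

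Shares within the family do not depend on the scaling between libraries, and they changed mostly in let-7e and let-7g. let-7e-5p held 15.0% (95% Wilson interval 13.5 to 16.6) and 11.3% (10.1 to 12.6) of the family in serum. In 2i it held 4.80% (4.14 to 5.57) and 4.45% (3.97 to 4.97), and in R2i 3.20% (2.45 to 4.17) and 3.83% (3.33 to 4.39). let-7g-5p held 10.5% (9.24 to 11.8) and 9.82% (8.69 to 11.1) in serum, 21.4% (20.1 to 22.8) and 18.5% (17.6 to 19.5) in 2i, then 17.2% (15.5 to 19.1) and 15.9% (14.9 to 16.9) in R2i. The ratio of let-7g-5p to let-7e-5p counts was 0.698 and 0.870 in serum, 4.46 and 4.16 in 2i, then 5.38 and 4.15 in R2i.

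The other shares moved less. let-7a-5p held a mean of 27.1% in serum, 23.1% in 2i and 28.8% in R2i. let-7f-5p held 21.8%, 27.5% and 25.8%, and let-7c-5p 12.9%, 9.30% and 9.79%. miR-98-5p rose from 2.29% to 3.24% and 3.54% on this scale, and let-7i-5p stayed between 7.60% and 10.4% in all libraries.

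**Figure D3:**
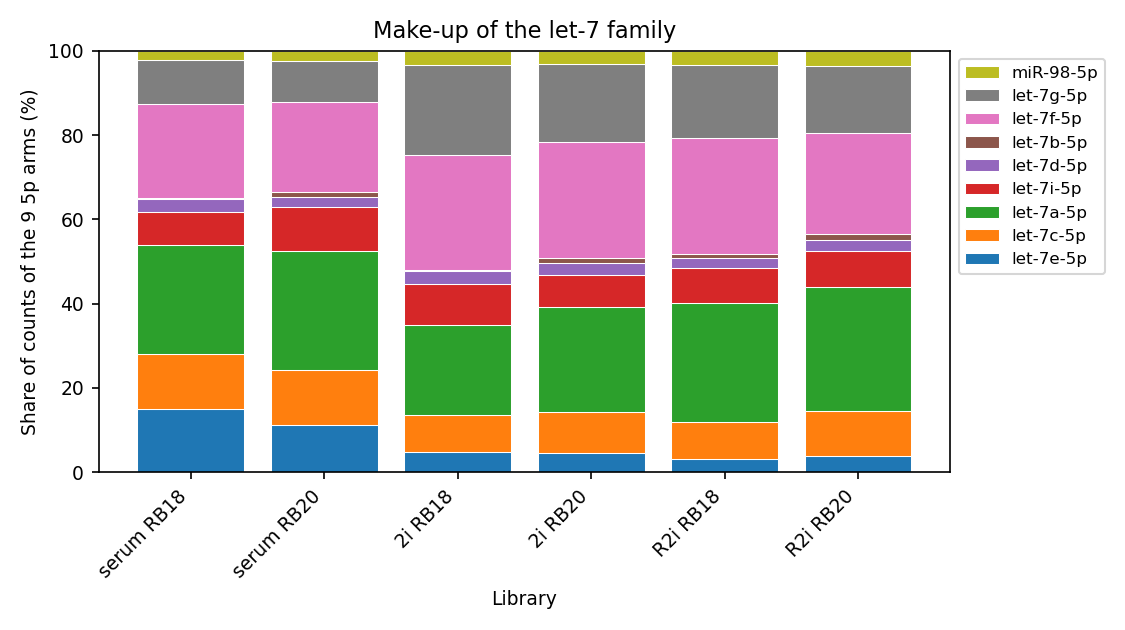
Share of the summed counts of the 9 5p arms (y axis, percent) held by each arm in each of the 6 libraries (x axis), as stacked bars. let-7e-5p at the base shrinks from 15.0% and 11.3% in serum to at most 4.80% in the ground-state libraries, and let-7g-5p near the top widens from 10.5% and 9.82% to between 15.9% and 21.4%.

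let-7e-5p is encoded by Mirlet7e in an intron of Spaca6 (GRCm38, chr17:17830352-17830444), between Mir99b (17830188 to 17830257) and Mir125a (17830812 to 17830879) on the same strand. The gaps are 94 and 367 bases, and the 3 miRNAs are known to be made from 1 primary transcript. All 4 tested arms of these neighbours moved in the direction of let-7e-5p. miR-99b-5p fell with log2 fold changes of −1.07 in 2i (edgeR adjusted p = 0.0292) and −1.87 in R2i (edgeR adjusted p = 0.00287). miR-125a-5p fell with −1.61 (edgeR adjusted p = 0.0160) and −2.05 (edgeR adjusted p = 0.00624). miR-99b-3p had −1.27 (edgeR adjusted p = 0.00613) and −1.65 (edgeR adjusted p = 0.00224), and miR-125a-3p −1.31 (edgeR adjusted p = 0.0144) and −1.72 (edgeR adjusted p = 0.00527).

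These neighbours were far more abundant than let-7e-5p on the 5p side. miR-99b-5p had 5739 and 3584 normalized CPM in serum, 2416 and 2018 in 2i, then 965 and 1576 in R2i. For miR-125a-5p the levels were 2981 and 1499, 669 and 797, and 360 and 722. In both, the serum libraries lay above all others and the largest value was serum RB18. With the cell line as a block, miR-99b-5p in 2i (edgeR adjusted p = 0.0520) no longer passed 0.05. In 2i each of the 4 arms also missed it when certain single libraries were left out: miR-99b-5p and miR-125a-5p without 2i RB18, 2i RB20 or serum RB18, miR-125a-3p without 2i RB18, 2i RB20 or serum RB20, and miR-99b-3p without 2i RB20. Over all alternatives their 2i log2 fold changes stayed below 0, from −1.43 to −0.59 for miR-99b-5p and from −2.08 to −0.92 for miR-125a-5p. In R2i the 4 arms passed in 15 of 15 alternatives each.

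**Figure D4:**
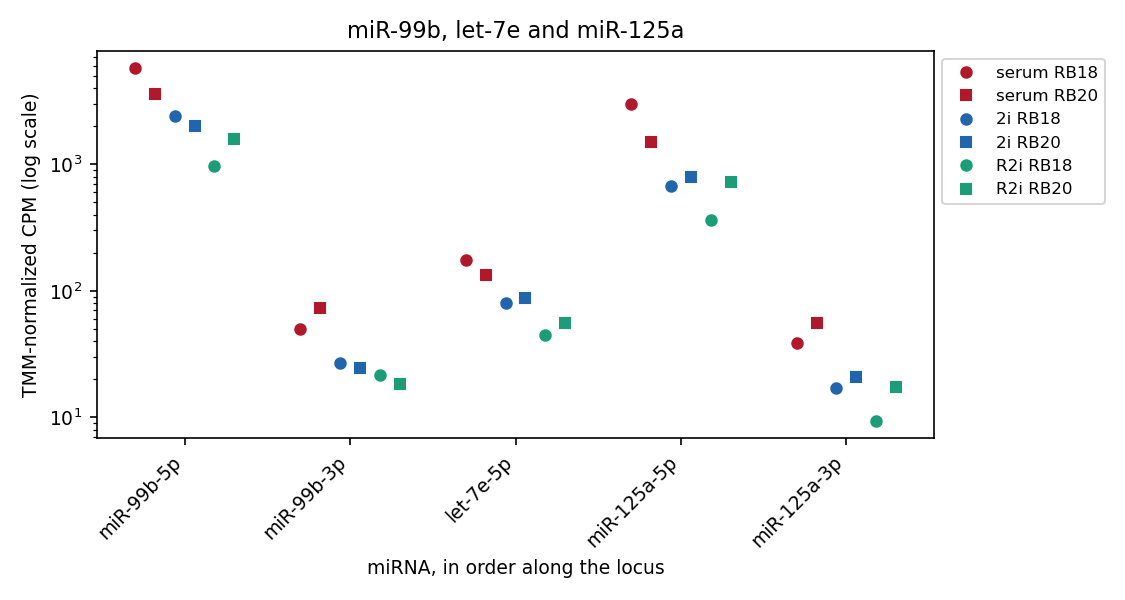
Level in TMM-normalized CPM on a log scale (y axis) of let-7e-5p and the arms of its neighbours miR-99b and miR-125a (x axis, in order along the transcript), 1 point per library, with circles for RB18 and squares for RB20. For each of the 5 arms both serum points lie above all 4 ground-state points, from 5739 and 3584 for miR-99b-5p to 38.9 and 55.5 for miR-125a-3p.

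The whole list of miRNAs that lie beside let-7 hairpins held 11 arms, of which 8 were tested. In 2i 5 passed 0.05, all lower (the 4 above and miR-125b-5p), and in R2i 5, all lower (the 4 above and miR-125b-1-3p), against 51.1% and 41.7% of all tested miRNAs in either direction, so the 2i share lies near the background. The median log2 fold change was −1.0 in 2i and −1.69 in R2i. Mir125b-1, a hairpin of miR-125b-5p, lies 45114 bases from Mirlet7a-2, much farther than the neighbours of let-7e. The distance of the other hairpin from let-7c-1 was not read. miR-125b-5p had −0.93 in 2i (edgeR adjusted p = 0.0417) and −0.53 in R2i (edgeR adjusted p = 0.225). It passed in 7 of 15 alternatives in 2i. miR-125b-1-3p had −0.87 (edgeR adjusted p = 0.121) and −1.79 (edgeR adjusted p = 0.0140), and without serum RB18 the R2i value of −1.42 did not pass (edgeR adjusted p = 0.0778). let-7a-5p and let-7c-5p are also made from other hairpins, so the counts do not say what the hairpins beside these neighbours gave.

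The lines were compared next, with 1 library per line and medium and no test. Such tallies were not made over all tested miRNAs, so those below describe the members and cannot be set against a background. In 2i against serum, 8 members were higher in both lines, let-7e-5p was lower in both, and let-7c-5p went opposite ways. In R2i against serum, 6 were higher in both lines, let-7e-5p was lower in both, and let-7c-5p, let-7d-5p and let-7i-5p went opposite ways. In 2i against R2i, 7 members were higher in 2i in both lines. In R2i RB18 the miR-100-5p and miR-99a-5p counts, given below, did not follow the other RB18 libraries. Whether the line label of R2i RB18 is right was not tested, and these R2i tallies depend on that label. Both R2i libraries were high in these miRNAs, so exchanging the R2i lines would still leave RB18 high in R2i. With the R2i lines exchanged, a choice made after seeing the data, 6 members were again higher in both lines against serum, let-7e-5p was lower in both, and let-7b-5p, let-7c-5p and let-7i-5p went opposite ways.

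let-7b-5p was the only member that differed over 2-fold between lines, in serum and 2i. How many of all tested miRNAs had such a gap was not counted. It had 5 counts in RB18 and 27 in RB20 in serum, 7 and 68 in 2i, then 14 and 68 in R2i. On the log2(CPM + 1) scale RB20 was above RB18 by 1.94 in serum, 2.31 in 2i and 0.65 in R2i, whereas the median over the members was 0.07, 0.15 and 0.17. The log2 fold changes of let-7b-5p between media, 0.63 in 2i (95% interval −1.36 to 2.62) and 0.99 in R2i (−1.004 to 2.99), were smaller than the gaps between lines in serum and 2i. Its adjusted p was 0.574 in 2i and 0.398 in R2i (edgeR).

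A gap between lines was also seen in 2 neighbours of let-7 hairpins. miR-100-5p, encoded 5211 bases from Mirlet7a-2, had 32 counts in RB18 and 694 in RB20 in serum, 11 and 865 in 2i, then 401 and 873 in R2i. miR-99a-5p, encoded 656 bases from Mirlet7c-1, had 3 and 52, 0 and 68, and 37 and 64. Both were low in RB18 in serum and 2i and not in R2i, where RB18 was the higher line in normalized CPM. let-7b-5p had the same order of lines in serum and 2i, with RB18 below RB20 also in R2i. let-7a-5p and let-7c-5p differed by at most 0.47 on the log2(CPM + 1) scale between lines.

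**Figure D5:**
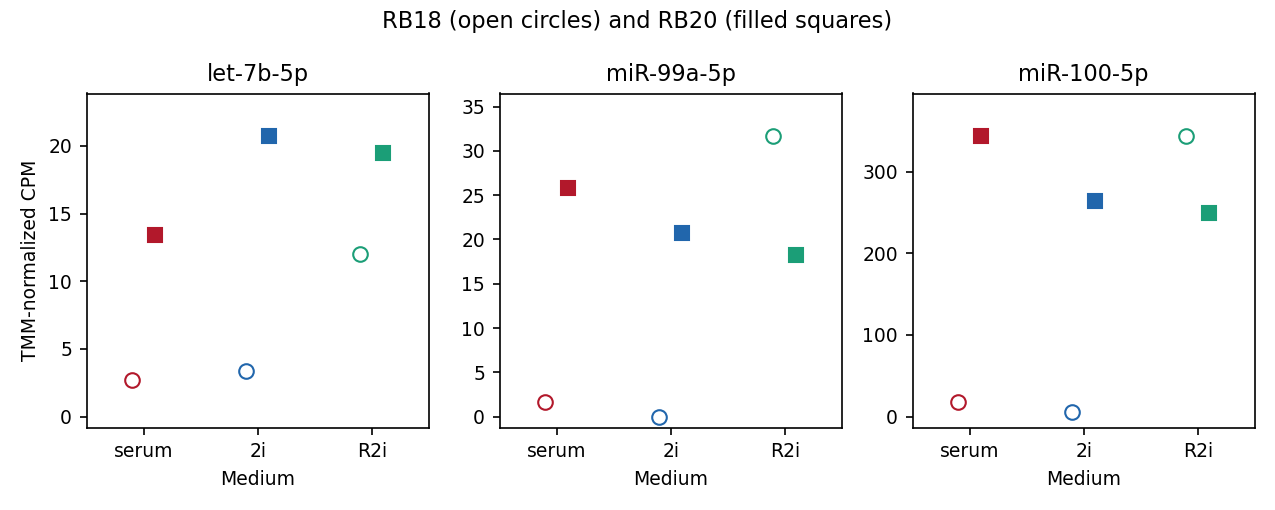
Level in TMM-normalized CPM (y axis) of let-7b-5p, miR-99a-5p and miR-100-5p in each medium (x axis), with open circles for RB18 and filled squares for RB20, 1 library each. RB18 has at most 17.5 in serum and 2i for all 3, and in R2i it is at 12.0 for let-7b-5p and above RB20 for the other 2.

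Hairpins can give both arms, and the second was rare for most of the family. The let-7d hairpin was the exception, with 39.9% of its counts on the 3p arm over all libraries (95% Wilson interval 36.9 to 43.0). By library the share was 29.9% and 40.8% in serum, 41.4% and 34.5% in 2i, then 46.6% and 46.6% in R2i. These are single libraries, and a difference between media was not tested. For the other hairpins with a single origin the 3p share over all libraries was 7.40% for miR-98, 4.06% for let-7b, 1.90% for let-7e, 1.69% for let-7g and 0.438% for let-7i.

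The 11 listed 3p arms outside the members had 409 counts in total, and 9 were seen at all. let-7a-2-3p and let-7c-1-3p were at 0 in every library. The 4 tested had a median log2 fold change of 1.14 in 2i and 0.87 in R2i, against −0.03 and −0.07 over all tested miRNAs. With edgeR 0 were called, against 34.2% of all in 2i and 30.6% in R2i. At adjusted p under 0.05, 0 passed, against 51.1% and 41.7%, nor was any under 0.05 unadjusted. For let-7g-3p, whose counts were 4 and 5 in serum, 12 and 19 in 2i, then 3 and 17 in R2i, the log2 fold change in 2i was 1.29 (95% interval −0.04 to 2.63). let-7a-1-3p was the most abundant, with 114 counts. It has the same sequence as let-7c-2-3p (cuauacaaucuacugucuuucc), yet the pair was counted differently, with 16 against 3 in serum RB18 and 35 against 26 in 2i RB20, so its split between hairpins is uncertain.

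The stretch between the mature arms of the precursor, where LIN28 is known to bind GGAG, was read from RefSeq hairpins. It is shown for let-7g and let-7e, the members with the largest rise and fall in 2i, 5′ to 3′ on the strand of the hairpin, with GGAG in capitals.
Mirlet7g: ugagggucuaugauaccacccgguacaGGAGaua
Mirlet7e: gaggaagacacccgaGGAGauca

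This motif was found in 9 of the 12 let-7 family hairpins and in 52 of 644 mouse hairpins with both arms known (8.07%). GAU, whose G may be the last letter of GGAG, was found in 10 of 12 against 101 of 644 (15.7%). Only the strand of the RNA was searched. Mirlet7g and Mirlet7e both hold GGAG.

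The miRNAs outside the family whose log2 level was most like the family total over the 6 libraries were miR-291b-3p (Pearson r = 0.970), miR-196a-5p (0.966), miR-1981-5p (0.966), miR-23b-3p (0.965) and miR-1981-3p (0.954), out of 557 compared. The libraries fall into 3 media, and all miRNAs of a library share its depth and scaling, so these are descriptions. Within the family, r with the total was 0.976 for let-7f-5p and 0.945 for let-7g-5p, which are part of it, and −0.41 for let-7e-5p.

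Markers of other cell types were read beside these results, since let-7 is abundant in differentiated cells. The summed level of 5 mesenchymal miRNAs was 1431 and 2046 normalized CPM in serum, 3329 and 3651 in 2i, then 2414 and 2422 in R2i, the same order of media as let-7g-5p. The sum was carried by miR-143-3p, and miR-214-3p had 6 counts or fewer in every library. miR-145a-5p overlapped between media, with 66.8 and 44.6 normalized CPM in serum, 53.9 and 89.1 in 2i, then 60.9 and 73.5 in R2i. miR-199a-3p and miR-199a-5p were highest in R2i RB18 (106.3 and 126.0). The 3 neural markers summed to between 773 and 1077, and the 4 endoderm markers to between 1409 and 2470, with overlap between media. The 3 muscle markers summed to 79.4 and 46.6 in serum against at most 7.72 elsewhere. The 4 blood markers summed to between 48.9 and 355, and miR-223-3p was at 0 in every library. miR-142a-3p had 453 and 518 counts in serum, 701 and 402 in 2i, then 107 and 91 in R2i. miR-451a had 0 and 3, 26 and 27, and 22 and 66. For miR-144-3p the counts were 1 and 0, 4 and 5, and 6 and 14. The part of such cells in the let-7 levels was not tested.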

How the data were processed

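Small RNA from 6 mouse ESC libraries (serum, 2i and R2i, lines RB18 and RB20) had been sequenced. Per the labels, the submitters' processing notes name FastQC 0.11.5, cutadapt 1.3, Bowtie 1.1.2, featureCounts 1.5 and the build mm10 (GRCm38), and the authors deposited whole-number counts per mature miRNA. They also deposited log2 values, which equal log2(count / median-of-ratios size factor + 1) within 0.0050 for the 1233 miRNAs with a count. The treatment of multi-mapping reads is not given in the sources used here.

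From the counts, edgeR 4.0.16 (R 4.3.3) fitted 1 coefficient per medium to all 6 libraries by quasi-likelihood, with TMM scaling, a filter (filterByExpr, minimum count 10, minimum total 15) that left 571 miRNAs, and Benjamini-Hochberg adjustment over these. The common biological coefficient of variation was 24.6%. Called means over 2-fold at an adjusted p under 0.01. No line term was used, as the study merged the lines. The same lines recur in each medium and so pair the libraries. Deviations from the group means correlated by 0.21 between serum and 2i, −0.13 between serum and R2i, and 0.25 between 2i and R2i. With 2 libraries per group a two-sided exact permutation test of a single value cannot go below 0.333, so none is given. Log2 ratios between single libraries used CPM + 1.

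Alternatives were DESeq2 1.42.0, limma 3.58.1 on the deposited log2 values, other scalings and filters, only the media compared, the line as a replicate block, and leaving out each library. The edgeR fit was also run on simulated counts with known changes, the same in 2i and R2i, and no line effect. That run cannot speak to gaps between lines. All 10 members were named. Of the lists of star arms, hairpin neighbours and AAGUGC miRNAs, those past adjusted p 0.05 and the most abundant were to be named with values, at most 4 per list. A 5th neighbour in each medium, miR-125b in either form, and the 2 neighbours with a line gap were named after their values were seen. A textbook grouping of let-7 precursors was not applied, as let-7a-5p and let-7c-5p each pool 2 hairpins. The members and lists were chosen with earlier results of these data known. Mature and hairpin sequences are from RefSeq (GRCm38.p6), with all 10 members matched, and host genes from GENCODE.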

Additional observations from a re-analysis of the deposited data

Results flagged for a closer look

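let-7c-5p went opposite ways in the lines in both ground-state media. In RB18 its log2 ratio to serum was −0.038 in 2i and −0.30 in R2i, and in RB20 it was 0.36 in 2i and 0.042 in R2i. Whether the line label of R2i RB18 is right was not tested. With the R2i lines exchanged, the R2i values were 0.042 in RB18 and −0.30 in RB20. There was 1 library per line and medium, so the difference between lines was not tested, and no cause of it was tested.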

How the results depend on the processing

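Of 586 values of single members under the alternatives (at most 15 for each of 40 results), 531 kept their direction and their side of adjusted p 0.05, 38 lost and 1 gained significance, and 16 reversed. In R2i against serum, 1 member was called, and 2 were called with DESeq2, with at least 10 counts in every library, with limma, with the 5 most abundant miRNAs left out of the scaling and with only the 4 libraries compared, where let-7g-5p joined let-7e-5p. With library totals 3 were called, as miR-98-5p joined too. Leaving out 1 library, the members called ranged from 1 to 2 in 2i (1 without either serum or either 2i library), from 0 to 1 in R2i (lowest without R2i RB18) and from 1 to 3 in the mean of both (lowest without serum RB18). Those at adjusted p under 0.05 ranged from 2 to 5 in 2i (lowest without 2i RB20) and from 2 to 3 in R2i (lowest without R2i RB20). With the cell line as a replicate block, the calls numbered 2 for 2i, 1 for R2i and 3 for the mean of both, the same miRNAs as without it, and 5, 3 and 5 passed 0.05. Apart from let-7d-5p in 2i and let-7d-3p in R2i, the block changed no call of a member at 0.05. The serum and R2i deviations correlated by −0.13 under the line labels, and those of 2i and R2i by 0.25. A pairing with the R2i lines exchanged was added after seeing the data. With it, 1 member was called against serum in 2i, 1 for R2i and 2 for the mean of both. The reversed values all belonged to members that passed no test in that comparison. let-7c-5p in R2i was 0.021 with only the 4 libraries, and in 2i against R2i let-7a-5p was −0.024 with library totals and −0.005 with limma, and let-7d-3p −0.022 with library totals. Leaving out 1 library, let-7b-5p ranged from −1.23 to 2.14 in 2i, from −0.12 to 2.32 in the mean of both and from −2.23 to 0.37 in 2i against R2i. let-7c-5p ranged from −0.012 to 0.39 in 2i, from −0.30 to 0.044 in R2i, and from −0.056 to 0.15 in the mean of both. let-7d-5p ranged from −0.11 to 0.42 in R2i, and in 2i against R2i let-7a-5p ranged from −0.19 to 0.29 and let-7d-3p from −0.057 to 0.17. The cause of these shifts was not tested. With 2 libraries per medium and 5 to 68 counts, changes of let-7b-5p were not measurable here.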
